A study of Danio rerio with 18 samples.

Results

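The Wnt and planar cell polarity genes were 72 of the 31901 genes of the deposited read-count table, chosen by gene name, with earlier results of these data known. The 72 cover the Wnt ligands, their Frizzled receptors, the Lrp5/6 and Ror co-receptors, the Dishevelled, Axin and Lef1 genes, the secreted Dkk and Sfrp inhibitors, and the core polarity genes of the Vangl, Celsr and Prickle families. They were measured by poly-A RNA sequencing in 18 zebrafish libraries of 7 groups. At 6 weeks post fertilization (wpf), each library was 1 whole fish: 3 scoliotic *kif7* co63/co63 fish, 3 non-scoliotic *kif7* co63/co63 fish, 3 *kif7* co63/+ fish and 3 wild-type AB fish. At 4 days post fertilization (dpf), each library was a pool of 20 whole embryos: 2 pools of *kif7* co63/co63, 2 of *kif7* co63/+ and 2 of AB. *kif7* encodes a kinesin at the tip of the primary cilium that acts in Hedgehog signalling. The 2 homozygous groups at 6 wpf share the genotype and differ in spinal curvature, and the embryo pools could not be divided by a curvature that had not yet appeared. The labels give no sex for the fish.

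Wnt proteins are secreted ligands that bind Frizzled receptors on nearby cells. With Lrp5 or Lrp6 as co-receptor, the signal passes through Dishevelled, inactivates the Axin complex that degrades beta-catenin, and lets beta-catenin act with Lef1 and Tcf factors on target genes. Without Lrp5/6, Frizzled and Dishevelled act with Vangl, Celsr and Prickle to align cells within a sheet and to drive convergent extension, the cell rearrangement that lengthens the zebrafish body axis and orders cartilage cells. Dkk proteins block Lrp5/6, and Sfrp proteins bind the ligands themselves.

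The libraries held 44503110 to 69698533 counted reads. The targeted gene, *kif7* (chromosome 7:14393059-14446512, GRCz11), had 25.9 to 28.8 CPM (read counts scaled to the same library total) in scoliotic fish, 25.5 to 29.8 CPM in non-scoliotic homozygotes, 23.6 to 32.3 CPM in heterozygotes and 41.7 to 47.7 CPM in AB fish at 6 wpf, and 10.8 and 21.5 CPM in homozygous pools, 14.8 and 15.6 CPM in heterozygous pools and 12.9 and 15.3 CPM in AB pools at 4 dpf. The embryo levels overlapped between the genotypes. The 2 homozygous embryo pools stood apart from each other: their counts differed with a chi-square of 479 per gene, against 27.4 to 152 for all other pairs of replicates, and results at 4 dpf are given with that in view. At 6 wpf the summed level of 9 oocyte markers was 3.65 to 244 CPM in scoliotic fish and 2.65 to 582 CPM in non-scoliotic homozygotes, against 1345 to 2317 CPM in heterozygotes and 2317 to 2680 CPM in AB fish. In these whole-animal samples, fewer cells of a type and less RNA per cell cannot be told apart. Replicates are separate fish or pools, and whether fish of a group came from separate crosses is not stated, so the p-values measure the spread between these samples only.

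Of the 72 genes, 67 had enough reads to pass the filter on low counts over the 18 libraries: 24 of 26 Wnt ligands, 11 of 13 Frizzled genes, 3 of 4 Lrp5/6 and Ror genes, all 8 Dishevelled, Axin and Lef1 genes, all 9 secreted inhibitors and all 12 core polarity genes. *fzd7a*, *fzd9b* and 1 of the 2 identifiers named *wnt8a* (ENSDARG00000078507) had 0 reads in every library. The other *wnt8a* (ENSDARG00000052910) and *ror2* stayed near 0, at up to 0.133 and 0.158 CPM. *celsr2* also has 2 identifiers, which overlap on chromosome 22, so the split of reads between them is uncertain. In all, 22 of the 72 overlap another gene, and whether the counting used strand is not settled by the labels.

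To set levels between genes side by side, CPM was divided by gene length in kilobases (RPKM). Among the ligands, *wnt11r*, a non-canonical ligand of muscle precursors and neural crest, averaged 22.1 RPKM over the 18 libraries, *wnt5b*, the non-canonical ligand needed for axis elongation and cartilage cell stacking, averaged 13.4 RPKM, and *wnt7aa* averaged 6.42 RPKM. Frizzled levels were led by *fzd2*, *fzd7b* and *fzd1* at 31.6, 20.7 and 13.6 RPKM. *lrp6* averaged 14.6 RPKM, *lrp5* 7.20 RPKM and *ror1* 2.17 RPKM. Of the intracellular genes, *axin1*, *dvl3a* and *axin2* averaged 13.6, 12.3 and 7.42 RPKM. *dkk3b*, *sfrp1a* and *sfrp5* led the inhibitors at 18.5, 14.6 and 7.68 RPKM, and *prickle1b*, *vangl2* and *vangl1* led the polarity genes at 10.3, 10.0 and 7.41 RPKM. The plot of all members by library shows how these levels shift between ages and genotypes.

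**Figure D1:**
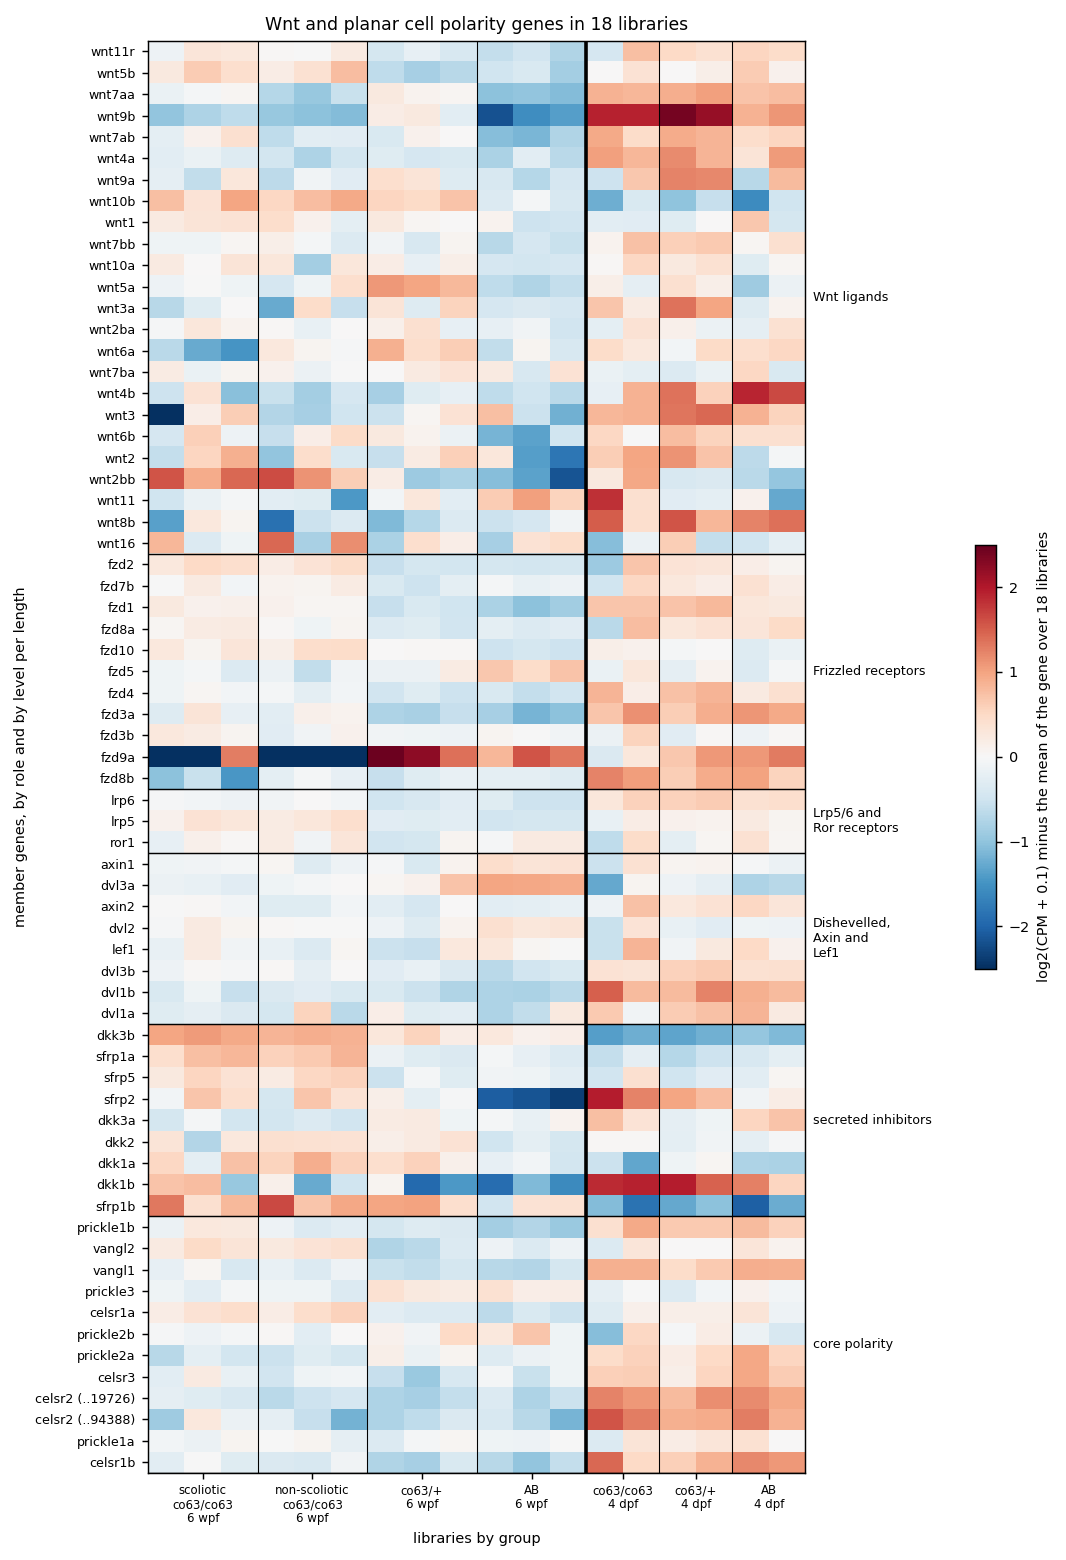
Each row is 1 of the 67 members that passed the filter, by role and by level per length, and each column is 1 of the 18 libraries. Colour gives log2(CPM + 0.1) minus the gene's mean over the libraries, with red above and blue below. The polarity genes *celsr1b* and *vangl1* are red in all 6 columns at 4 dpf, *sfrp2* is darkest blue in the 3 AB fish, and *fzd9a* is dark blue in 5 of the 6 homozygous fish.

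The first question was how the pathway genes differ between *kif7* homozygotes and wild type once curvature is visible. In scoliotic against AB fish, 31 of 66 tested members were called at a Benjamini-Hochberg adjusted p under 0.05 by edgeR's quasi-likelihood test, 25 higher and 6 lower. That is 47.0% of the members, beside 42.1% of all 22741 genes tested, and by direction 37.9% of members were higher, beside 19.2% of all genes, and 9.09% lower, beside 23% of all genes. The members' median log2 fold change was 0.37, beside 0.02 over all genes. Of the 31 calls, 19 held when any 1 of the 6 libraries was left out. Non-scoliotic homozygotes against AB gave 30 of 67 called (22 higher, 8 lower), or 44.8% of members beside 43.1% of all genes, with 32.8% of members higher beside 21.2% of all genes and 11.9% lower beside 21.9%. Here the medians were 0.35 and 0.04, and 22 of the 30 calls held with any library left out.

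Heterozygotes against AB fish gave 17 of 66 members called (13 higher, 4 lower), which is 25.8% of members beside 36.2% of all genes, with 19.7% higher beside 18.6% and 6.06% lower beside 17.6%. The medians were 0.19 and 0.03, and 9 of the 17 held with any library left out. In scoliotic fish against heterozygotes 22 of 66 were called (18 higher, 4 lower), or 33.3% beside 36.9% of all genes, with 27.3% of members higher beside 18.4% of all genes and 6.06% lower beside 18.5%. In non-scoliotic homozygotes against heterozygotes 22 of 66 were again called (15 higher, 7 lower), or 33.3% beside 36.6%, with 22.7% higher beside 18.7% and 10.6% lower beside 17.9%. Medians of members and all genes were 0.20 and -0.02 for scoliotic fish and 0.08 and -0.03 for non-scoliotic homozygotes against heterozygotes. With any library left out, 11 and 12 of these calls held. These 5 comparisons share the AB or the heterozygous fish, so their values are given side by side and are not independent of each other.

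**Figure D2:**
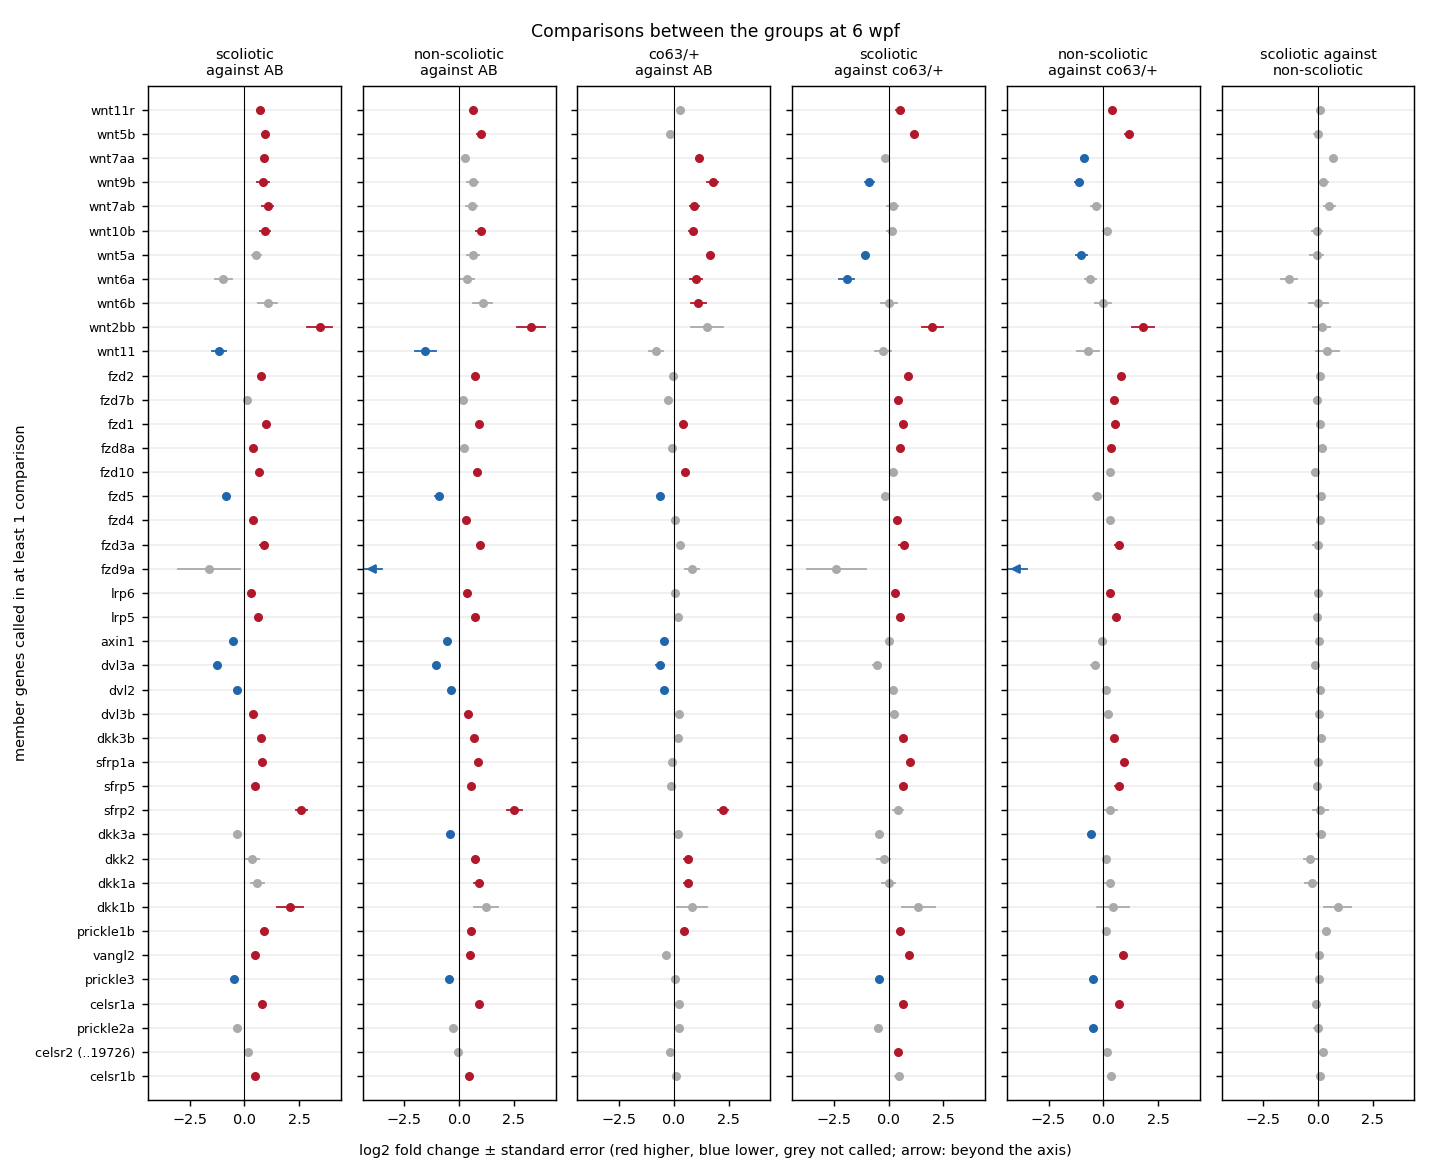
Log2 fold changes (horizontal axis) with standard errors from edgeR for the members called in at least 1 comparison at 6 wpf, with 1 panel for each of the 6 comparisons. Red points were called higher, blue lower and grey not called, and points beyond the axis are drawn as arrows. In the panels against AB, *axin1*, *dvl2*, *dvl3a* and *fzd5* are blue, and the panel of scoliotic against non-scoliotic fish holds no coloured point.

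Among the ligands, the abundant non-canonical gene *wnt5b* (chromosome 4:8532580-8663117) was higher in homozygotes of both kinds. It had 31.1, 40.4 and 34.8 CPM in scoliotic fish and 29.6, 33.8 and 44.7 CPM in non-scoliotic homozygotes, against 16.7, 14.5 and 16.0 CPM in heterozygotes and 18.5, 19.9 and 14.4 CPM in AB fish. All 6 homozygotes lay above all 6 other fish. The log2 fold change was 0.94 ± 0.16 (SE) in scoliotic and 0.98 ± 0.19 in non-scoliotic fish against AB (edgeR adjusted p = 0.0035 and 0.0058), and 1.17 ± 0.13 and 1.18 ± 0.17 against heterozygotes (edgeR adjusted p = 0.0012 and 0.0025). *fbxl14b*, which overlaps *wnt5b* on the other strand, was not called in either homozygous group against AB. *wnt11r* had 41.9, 56.5 and 54.7 CPM in scoliotic fish and 46.6, 45.8 and 53.6 CPM in non-scoliotic homozygotes, against 33.9, 39.5 and 34.8 CPM in heterozygotes and 30.2, 32.6 and 27.2 CPM in AB fish, and was again higher in every homozygote. Against AB its log2 fold change was 0.70 ± 0.14 in scoliotic and 0.65 ± 0.10 in non-scoliotic fish (edgeR adjusted p = 0.0074 and 0.0027).

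*wnt2bb*, which specifies the liver in the embryo, was low everywhere but rose in homozygotes: 1.80, 1.12 and 1.63 CPM in scoliotic fish and 1.88, 1.30 and 0.879 CPM in non-scoliotic homozygotes, against 0.632, 0.240 and 0.268 CPM in heterozygotes and 0.208, 0.152 and 0.0429 CPM in AB fish. Against AB it rose by 3.43 ± 0.59 (log2) in scoliotic and 3.29 ± 0.63 in non-scoliotic fish (edgeR adjusted p = 0.0041 and 0.0060), on a few reads per AB library. Against heterozygotes it was 1.99 ± 0.48 in scoliotic fish (edgeR adjusted p = 0.017), a call that was lost without heterozygote 2 or 3 (adjusted p up to 0.061).

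Several other ligands, *wnt9b*, *wnt5a*, *wnt7aa* and *wnt6a*, averaged highest in the heterozygotes at 6 wpf. *wnt9b*, a ligand of the facial epithelium, had 8.92, 9.28 and 6.51 CPM in heterozygotes against 1.65, 2.61 and 2.95 CPM in AB fish, a log2 fold change of 1.78 ± 0.25 (edgeR adjusted p = 0.0014). Homozygotes lay between, at 3.89, 4.56 and 5.01 CPM in scoliotic and 3.98, 3.78 and 3.66 CPM in non-scoliotic fish, and were lower than heterozygotes by 0.88 ± 0.20 and 1.13 ± 0.18 on the log2 scale (edgeR adjusted p = 0.015 and 0.0040). The scoliotic call was lost without heterozygote 1 or 2 (adjusted p up to 0.062), and the call of scoliotic against AB fish, 0.83 ± 0.27 (edgeR adjusted p = 0.046), was lost without any 1 of the 6 fish (adjusted p up to 0.12). *arf2a*, which overlaps *wnt9b* on the other strand, moved the opposite way in heterozygotes (log2 fold change -0.61 ± 0.11 against AB).

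*wnt5a*, a non-canonical ligand and paralogue of *wnt5b*, had 6.58, 6.08 and 5.40 CPM in heterozygotes against 1.92, 1.77 and 1.99 CPM in AB fish (log2 fold change 1.67 ± 0.18, edgeR adjusted p = 0.00038). It was lower by 1.06 ± 0.17 in scoliotic fish, at 2.79, 3.03 and 2.81 CPM, than in heterozygotes (edgeR adjusted p = 0.0040), and by 1.00 ± 0.25 in non-scoliotic homozygotes, at 2.23, 2.81 and 4.07 CPM (edgeR adjusted p = 0.021, and up to 0.075 without heterozygote 1 or 2). The 2 Wnt5 genes thus had opposite orders in homozygotes and heterozygotes. *wnt7aa*, related to the mouse ligand of dorsal limb ectoderm, had 17.3, 18.9 and 20.2 CPM in scoliotic fish, 11.9, 10.1 and 13.2 CPM in non-scoliotic homozygotes, 23.1, 20.7 and 20.3 CPM in heterozygotes and 9.58, 9.86 and 9.22 CPM in AB fish. It was higher than in AB in scoliotic fish (0.91 ± 0.11, edgeR adjusted p = 0.00097) and in heterozygotes (1.16 ± 0.11, edgeR adjusted p = 0.00020), and lower in non-scoliotic homozygotes than in heterozygotes (-0.88 ± 0.13, edgeR adjusted p = 0.0029). *wnt6a* was higher in heterozygotes than in AB fish by 1.01 ± 0.28 (edgeR adjusted p = 0.025, and up to 0.092 without heterozygote 1, AB fish 1 or AB fish 3), and lower in scoliotic fish than in heterozygotes by 1.90 ± 0.34 (edgeR adjusted p = 0.0058). The summed level of 8 epidermis markers was 4213 to 4920 CPM in heterozygotes against 1968 to 2735 CPM in AB fish, with 4029 to 5085 CPM in scoliotic fish and 3265 to 4738 CPM in non-scoliotic homozygotes. The 9 neural markers summed to 990 to 1086 CPM in heterozygotes against 731 to 779 CPM in AB fish, with 728 to 1046 CPM in scoliotic fish and 709 to 822 CPM in non-scoliotic homozygotes. By gene, 3 of the 9 neural markers were called higher and none lower in heterozygotes against AB (33.3%, beside 36.2% of all genes). Their median log2 fold change was 0.05, so the higher sum does not describe the list as a whole. The part of either tissue in the levels of these ligands was not tested.

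Of the other ligands, *wnt10b*, which promotes bone formation in the mouse, had 6.27, 4.66 and 7.35 CPM in scoliotic fish, 5.28, 6.34 and 7.13 CPM in non-scoliotic homozygotes, 5.40, 5.18 and 6.07 CPM in heterozygotes and 2.86, 3.56 and 2.76 CPM in AB fish. All 9 fish that carry co63 exceeded all 3 AB fish. Against AB the rise was 0.98 ± 0.20 (log2) in non-scoliotic homozygotes and 0.86 ± 0.18 in heterozygotes (edgeR adjusted p = 0.0071 and 0.0080), and 0.92 ± 0.23 in scoliotic fish (edgeR adjusted p = 0.017, lost without scoliotic fish 3, AB fish 1 or AB fish 3, adjusted p up to 0.066). *wnt6b* had 1.08, 2.28 and 1.35 CPM in scoliotic fish, 0.947, 1.66 and 2.08 CPM in non-scoliotic homozygotes and 1.77, 1.58 and 1.32 CPM in heterozygotes, against 0.606, 0.523 and 1.02 CPM in AB fish. It was called in heterozygotes against AB (1.12 ± 0.35, edgeR adjusted p = 0.036, held in 2 of 6 fits with 1 library left out, up to 0.11). *wnt7ab* had 3.73, 4.75 and 5.88 CPM in scoliotic fish, 2.81, 3.65 and 3.63 CPM in non-scoliotic homozygotes and 3.37, 4.74 and 4.46 CPM in heterozygotes, against 2.06, 1.94 and 2.59 CPM in AB fish. All 9 fish with co63 lay above AB, and scoliotic fish and heterozygotes were called, at 1.05 ± 0.25 and 0.93 ± 0.22 on the log2 scale (edgeR adjusted p = 0.015 and 0.013), the first held in 4 of 6 fits with 1 library left out (adjusted p up to 0.054). The single ligand lower in homozygotes than in AB was the gene the table names *wnt11* (ENSDARG00000004256, *wnt11f2* in the reference name table), a convergent extension ligand, at 0.494, 0.645 and 0.709 CPM in scoliotic and 0.594, 0.573 and 0.208 CPM in non-scoliotic fish against 1.20, 1.60 and 1.13 CPM in AB fish. Its calls (-1.15 ± 0.33 and -1.54 ± 0.47, edgeR adjusted p = 0.030 and 0.036) were lost without any 1 of the 6 fish and without any 1 of the 3 AB fish (adjusted p up to 0.10 and 0.11).

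**Figure D3:**
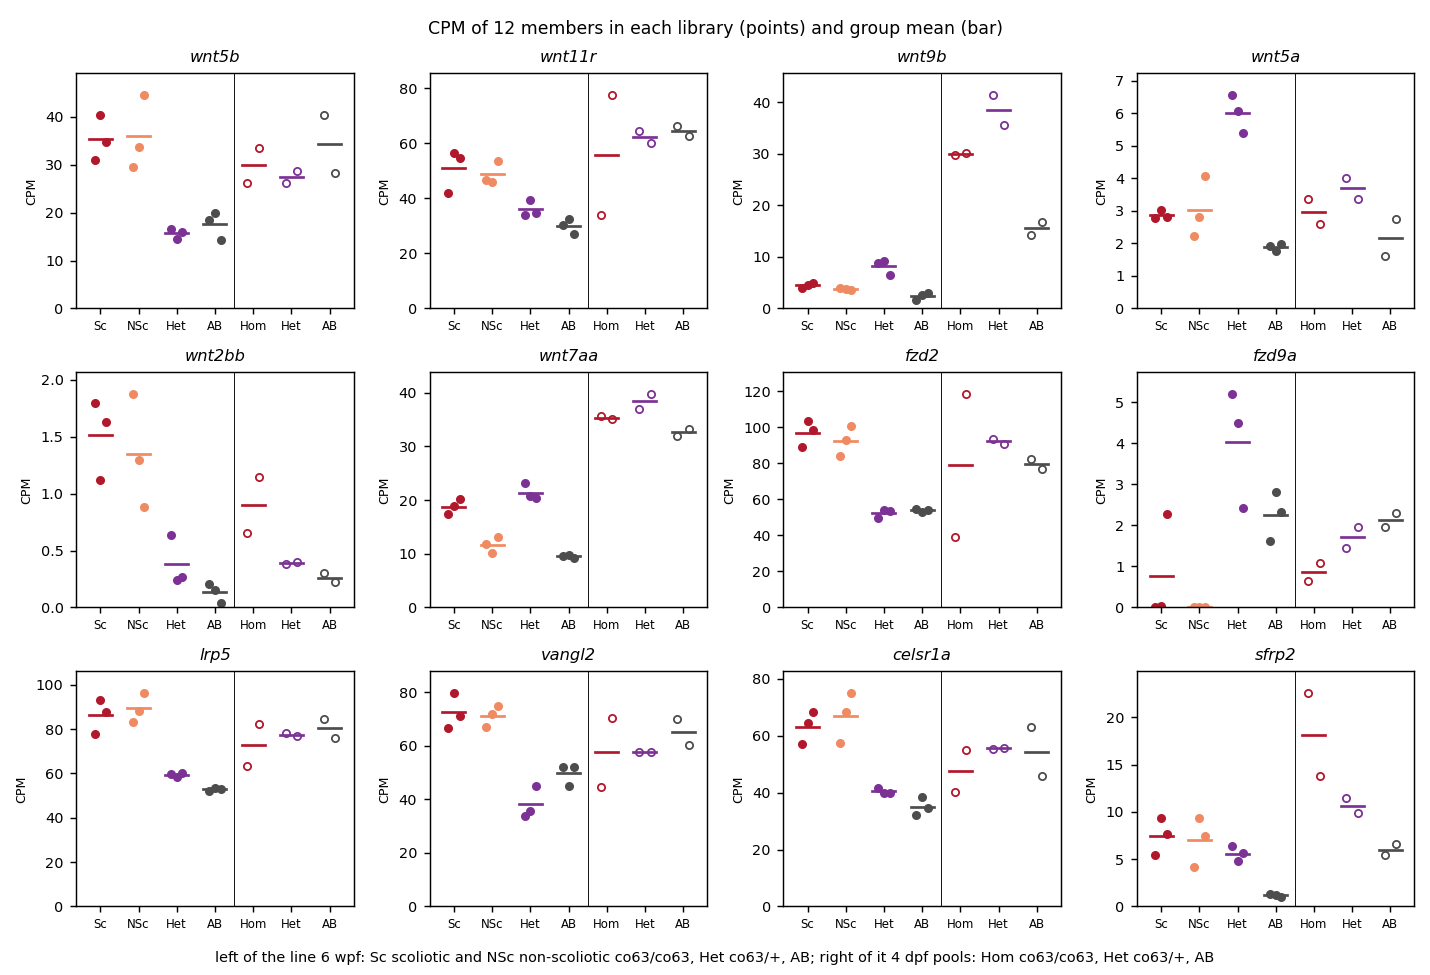
CPM (vertical axes, each from 0) of 12 members in all 18 libraries, with 1 point per fish or pool and a bar at the group mean. Groups at 6 wpf stand left of the line and pools at 4 dpf right of it. *wnt5b*, *fzd2*, *vangl2* and *lrp5* are higher in all 6 homozygous fish than in the other 6 fish, *wnt5a* and *wnt9b* are highest in heterozygotes at 6 wpf, and *fzd9a* is near 0 in 5 of 6 homozygous fish.

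Of 11 Frizzled receptor genes tested, 6 were higher and 1 lower in scoliotic fish than in AB fish (beside 19.2% of all genes higher and 23% lower), and 5 were higher and 2 lower in non-scoliotic homozygotes (beside 21.2% and 21.9%). *fzd2* (chromosome 3:31621774-31624213), a receptor for Wnt5 ligands, had 89.0, 103 and 98.7 CPM in scoliotic fish and 84.2, 93.0 and 101 CPM in non-scoliotic homozygotes, against 49.6, 53.9 and 53.5 CPM in heterozygotes and 54.4, 53.2 and 54.4 CPM in AB fish. The 6 homozygotes lay above the 6 other fish with a wide gap. Its log2 fold change was 0.78 ± 0.09 and 0.73 ± 0.09 against AB and 0.89 ± 0.11 and 0.81 ± 0.11 against heterozygotes, in scoliotic and non-scoliotic fish (edgeR adjusted p = 0.00072, 0.0012, 0.0015 and 0.0023). *fzd1* had 25.5, 23.3 and 23.5 CPM in scoliotic fish and 23.1, 22.2 and 22.4 CPM in non-scoliotic homozygotes, against 14.5, 16.6 and 15.3 CPM in heterozygotes and 12.4, 10.6 and 11.7 CPM in AB fish. Here the groups formed 3 steps, and compared with AB the gene was higher by 0.98 ± 0.10 (log2) in scoliotic fish, 0.92 ± 0.10 in non-scoliotic homozygotes and 0.42 ± 0.12 in heterozygotes (edgeR adjusted p = 0.00059, 0.00073 and 0.026), the call in heterozygotes holding in 2 of 6 fits with 1 library left out (adjusted p up to 0.093, without heterozygote 2).

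*fzd3a*, which acts in axon guidance and cell polarity, had 20.9, 32.9 and 22.7 CPM in scoliotic fish and 21.7, 28.5 and 27.9 CPM in non-scoliotic homozygotes, against 15.3, 14.8 and 17.5 CPM in heterozygotes and 14.7, 11.6 and 12.8 CPM in AB fish. Against AB its log2 fold change was 0.89 ± 0.20 and 0.95 ± 0.15 (edgeR adjusted p = 0.011 and 0.0027). Its call in scoliotic fish against heterozygotes, 0.68 ± 0.19 (edgeR adjusted p = 0.029), was lost without any 1 of the 3 heterozygotes (adjusted p up to 0.097). *fbxo16*, on the opposite strand within *fzd3a*, was lower in scoliotic fish than in AB (-1.02 ± 0.30). *fzd10* had 41.3, 36.0 and 42.2 CPM in scoliotic fish, 38.0, 46.1 and 46.7 CPM in non-scoliotic homozygotes, 34.3, 34.8 and 34.7 CPM in heterozygotes and 23.9, 25.3 and 23.8 CPM in AB fish, with log2 fold changes against AB of 0.64 ± 0.09, 0.80 ± 0.11 and 0.51 ± 0.09 (edgeR adjusted p = 0.0017, 0.0015 and 0.0034). It overlaps *piwil1*, a germ-cell gene on the same strand that averaged 13.3, 27.9, 129.6 and 221 CPM in those groups, so reads of the 2 genes could be assigned to either.

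*fzd5*, an eye-field receptor, went the other way, with 13.5, 13.9 and 11.4 CPM in scoliotic fish, 13.0, 9.35 and 13.6 CPM in non-scoliotic homozygotes and 13.1, 13.0 and 16.8 CPM in heterozygotes, against 23.0, 19.8 and 23.8 CPM in AB fish. All 9 fish with co63 lay below AB, with log2 fold changes of -0.85 ± 0.12, -0.94 ± 0.16 and -0.63 ± 0.14 (edgeR adjusted p = 0.0021, 0.0036 and 0.0089).

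*fzd9a* (chromosome 5:56023186-56027776) varied between single fish, and is described after its values were seen. Scoliotic fish had 0, 2 and 96 reads and non-scoliotic homozygotes 1, 1 and 1, against 247, 225 and 126 in heterozygotes and 94, 167 and 163 in AB fish. In CPM, scoliotic fish 3 was at 2.27, within the range of AB fish (1.63 to 2.82 CPM), and the other 5 homozygotes were at 0 to 0.0430 CPM. Against the 3 reads of the non-scoliotic group the AB level was 119.5 times higher (95% exact counting interval 40.6 to 582, counting error only), and non-scoliotic homozygotes were called lower than AB and than heterozygotes (edgeR adjusted p = 0.00028 and 0.00023). Both homozygous embryo pools had *fzd9a* reads (34 and 62, against 125 and 122 in AB pools).

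The co-receptor *lrp5*, a regulator of bone mass, had 77.7, 93.3 and 87.7 CPM in scoliotic fish and 83.3, 88.3 and 96.5 CPM in non-scoliotic homozygotes, against 59.6, 58.3 and 60.4 CPM in heterozygotes and 52.0, 53.4 and 52.9 CPM in AB fish. Every homozygote exceeded every other fish. The log2 fold change was 0.64 ± 0.09 and 0.71 ± 0.08 against AB and 0.54 ± 0.11 and 0.58 ± 0.10 against heterozygotes (edgeR adjusted p = 0.0020, 0.0010, 0.0086 and 0.0056). *ap3s2*, which overlaps *lrp5* on the other strand, was lower in scoliotic fish than in AB (-0.58 ± 0.15). *lrp6* had 36.3 to 38.5 CPM in scoliotic fish and 37.0 to 39.6 CPM in non-scoliotic homozygotes, against 28.0 to 32.6 CPM in heterozygotes and 27.5 to 32.0 CPM in AB fish, with log2 fold changes of 0.30 ± 0.09 and 0.35 ± 0.09 against AB (edgeR adjusted p = 0.032 and 0.023). With 1 library left out, these calls held in 1 and 2 of 6 fits (adjusted p up to 0.11 and 0.087, both without AB fish 3).

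Of the 8 Dishevelled, Axin and Lef1 genes, 1 was higher and 3 were lower in either homozygous group than in AB (beside 19.2% of all genes higher and 23% lower for scoliotic fish, and 21.2% and 21.9% for non-scoliotic homozygotes), and none was higher and 3 were lower in heterozygotes (beside 18.6% and 17.6%). How these counts differ from those of the other families was not tested. *dvl3a*, a Dishevelled adaptor, had 30.7, 29.8 and 28.0 CPM in scoliotic fish, 31.7, 32.8 and 34.2 CPM in non-scoliotic homozygotes and 35.1, 36.8 and 55.9 CPM in heterozygotes, against 67.8, 66.3 and 64.7 CPM in AB fish. All 9 fish with co63 were below AB, by 1.24 ± 0.07 and 1.06 ± 0.07 on the log2 scale in scoliotic and non-scoliotic fish (edgeR adjusted p = 0.00012 and 0.00028) and by 0.63 ± 0.17 in heterozygotes (edgeR adjusted p = 0.023, which held only without heterozygote 3 and reached 0.084 otherwise). *axin1*, the scaffold of the beta-catenin degradation complex, had 72.7, 73.0 and 75.5 CPM in scoliotic fish, 81.1, 61.9 and 71.5 CPM in non-scoliotic homozygotes and 76.2, 60.1 and 83.1 CPM in heterozygotes, against 106, 97.8 and 99.5 CPM in AB fish. Its log2 fold change was -0.53 ± 0.08, -0.55 ± 0.11 and -0.46 ± 0.13 (edgeR adjusted p = 0.0020, 0.0071 and 0.027), the call in heterozygotes being lost without heterozygote 1 or any 1 AB fish (adjusted p up to 0.086). *dvl2* was lower than in AB by 0.32 ± 0.09, 0.38 ± 0.08 and 0.44 ± 0.12 in the same order (edgeR adjusted p = 0.030, 0.0075 and 0.021). The scoliotic call was lost without scoliotic fish 1 or 3 or any 1 AB fish (adjusted p up to 0.095), and the heterozygous call without heterozygote 1, AB fish 1 or AB fish 3 (adjusted p up to 0.073).

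Germ-cell markers differed between the same groups. *dvl3a*, *axin1*, *dvl2* and *fzd5* were highest in AB fish, the group with the highest summed oocyte markers. Within the homozygotes the oocyte sum ran from 2.65 to 582 CPM while *dvl3a* stayed between 28.0 and 34.2 CPM. Among the same fish *axin1* was highest in non-scoliotic fish 1 and lowest in non-scoliotic fish 2, which had the largest and smallest oocyte sums. *fzd5* was also lowest in non-scoliotic fish 2, while *dvl2* was highest in scoliotic fish 2, at an oocyte sum of 3.65 CPM. The largest homozygous sum lay below those of all heterozygotes and AB fish. The heterozygotes had oocyte sums of 1656, 1345 and 2317 CPM. Heterozygote 3, with the largest of these sums, also had the highest *dvl3a*, *axin1*, *dvl2* and *fzd5* among heterozygotes. Non-scoliotic fish 2 had no reads of *zar1*, *zp2.5*, *gdf9* or *figla*. The summed level of 6 testis markers was 3.85 to 13.6 CPM in scoliotic fish, 5.76 to 19.4 CPM in non-scoliotic homozygotes, 34.6 to 72.7 CPM in heterozygotes and 59.3 to 73.5 CPM in AB fish. Of these testis markers, *tssk6* had no reads in any library and *insl3* none in any homozygous fish, so the sums rest on the others. They did not move alike. Of 4 tested against AB, 2 were lower in scoliotic fish (50%, beside 42.1% of all genes). In non-scoliotic homozygotes 1 was higher and 1 lower (50%, beside 43.1%). Of 5 tested in heterozygotes, 1 was higher and none lower (20%, beside 36.2%), with a median log2 fold change of 0.67. The part of either tissue in these differences was not tested.

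**Figure D4:**
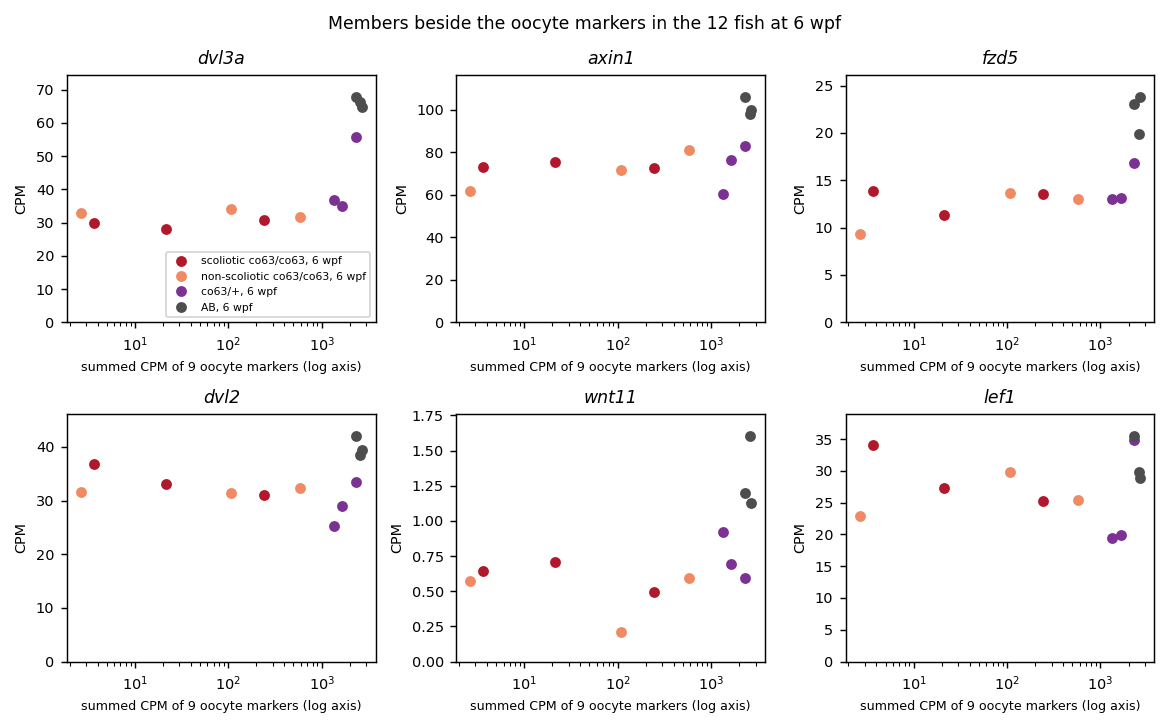
CPM of 6 members (vertical axes, from 0) against the summed CPM of 9 oocyte markers (horizontal axis, log scale) in the 12 fish at 6 wpf, coloured by group. Homozygotes spread from 2.65 to 582 CPM of oocyte markers with *dvl3a* between 28.0 and 34.2 CPM. Among homozygotes, *axin1* was highest in the fish with the largest oocyte sum and lowest in the fish with the smallest. AB fish lie at the right-hand end, beside heterozygote 3, the heterozygote with the highest *dvl3a*, *axin1*, *fzd5* and *dvl2*.

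*axin2* and *lef1*, which are among the transcriptional targets of beta-catenin, were not called at 6 wpf. *axin2* had 50.9, 52.6 and 49.1 CPM in scoliotic fish, 41.4, 41.7 and 49.1 CPM in non-scoliotic homozygotes, 42.4, 38.3 and 51.7 CPM in heterozygotes and 42.9, 43.4 and 45.3 CPM in AB fish. Against AB the log2 differences were 0.14 ± 0.07, -0.04 ± 0.09 and 0.01 ± 0.12 (edgeR adjusted p = 0.15, 0.75 and 0.94), and against heterozygotes 0.20 ± 0.13 in scoliotic and -0.02 ± 0.14 in non-scoliotic fish (edgeR adjusted p = 0.26 and 0.94). *lef1* had 25.3, 34.1 and 27.2 CPM in scoliotic fish, 25.4, 22.9 and 29.8 CPM in non-scoliotic homozygotes, 19.9, 19.5 and 34.9 CPM in heterozygotes and 35.4, 29.8 and 28.9 CPM in AB fish. Its log2 differences against AB were -0.19 ± 0.14, -0.32 ± 0.13 and -0.34 ± 0.22 (edgeR adjusted p = 0.32, 0.082 and 0.26), and against heterozygotes 0.22 ± 0.25 and 0.06 ± 0.25 (edgeR adjusted p = 0.53 and 0.88). Neither gene passed the test in any comparison at 6 wpf, and the ranges of the groups overlapped except for *axin2* in scoliotic against AB fish. The *lef1* differences against AB were all negative, the direction of *dvl3a*, *axin1*, *dvl2* and *fzd5*. A missed threshold does not show equal levels.

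Of the 9 secreted inhibitors, 5 were higher and none lower in scoliotic fish than in AB (beside 19.2% of all genes higher and 23% lower), 6 higher and 1 lower in non-scoliotic homozygotes (beside 21.2% and 21.9%), and 3 higher and none lower in heterozygotes (beside 18.6% and 17.6%). The 1 lower in non-scoliotic homozygotes was *dkk3a*, which was called lower there than in heterozygotes too. It was not called in scoliotic fish against AB or against heterozygotes, or between the homozygous groups. *sfrp1a* (chromosome 5:27488975-27538745), which binds Wnt ligands, had 32.9, 41.5 and 44.0 CPM in scoliotic fish and 36.7, 38.6 and 44.2 CPM in non-scoliotic homozygotes, against 22.0, 19.7 and 19.1 CPM in heterozygotes and 23.7, 21.3 and 19.4 CPM in AB fish. It rose by 0.81 ± 0.14 and 0.84 ± 0.11 against AB and 0.96 ± 0.14 and 0.96 ± 0.11 against heterozygotes on the log2 scale (edgeR adjusted p = 0.0041, 0.0014, 0.0027 and 0.0013). *loxl2b*, which overlaps it on the same strand, rose with it (1.16 ± 0.15 and 1.31 ± 0.12 against AB), so the 2 cannot be fully separated. *dkk3b*, a diverged Dkk family member, had 34.6, 36.7 and 33.6 CPM in scoliotic fish and 31.6, 32.7 and 31.8 CPM in non-scoliotic homozygotes, against 21.3, 25.6 and 19.9 CPM in heterozygotes and 20.9, 18.7 and 19.5 CPM in AB fish. Against AB this was 0.76 ± 0.08 and 0.66 ± 0.09 on the log2 scale (edgeR adjusted p = 0.00070 and 0.0014), and against heterozygotes 0.65 ± 0.12 and 0.51 ± 0.12 (edgeR adjusted p = 0.0075 and 0.017), the last being lost without heterozygote 1 (adjusted p = 0.074).

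*sfrp2* was higher than in AB in each group with co63, at 5.48, 9.31 and 7.70 CPM in scoliotic fish, 4.21, 9.35 and 7.43 CPM in non-scoliotic homozygotes and 6.34, 4.82 and 5.61 CPM in heterozygotes, against 1.30, 1.21 and 1.04 CPM in AB fish. The lowest of those 9 fish was above 3 times the highest AB fish. Its log2 fold change against AB was 2.59 ± 0.26, 2.52 ± 0.33 and 2.24 ± 0.21 (edgeR adjusted p = 0.00049, 0.0014 and 0.00019). *sfrp5* had 17.5, 21.3 and 18.8 CPM in scoliotic fish and 17.0, 21.1 and 22.0 CPM in non-scoliotic homozygotes, against 10.0, 14.1 and 11.8 CPM in heterozygotes and 13.8, 13.6 and 12.1 CPM in AB fish. Its log2 fold change was 0.47 ± 0.12 and 0.56 ± 0.13 against AB (edgeR adjusted p = 0.017 and 0.012), both lost without AB fish 3 (adjusted p = 0.068 and 0.051). *dkk1a* and *dkk2*, inhibitors of Lrp5/6 signalling, were higher in non-scoliotic homozygotes than in AB by 0.90 ± 0.20 and 0.74 ± 0.16 (edgeR adjusted p = 0.010 and 0.0094). Both were called higher in heterozygotes than in AB too, by 0.64 ± 0.20 and 0.65 ± 0.17 (edgeR adjusted p = 0.038 and 0.019). Neither was called in scoliotic fish against AB, or between the homozygous groups. Scoliotic fish 1, 2 and 3 had 247, 149 and 274 reads of *dkk1a* and 254, 124 and 229 of *dkk2*. Their library totals were alike (47888282 to 49637527 counted reads), so fish 2 was the lowest for both genes. The missed threshold does not show that scoliotic fish were at the AB level. *dkk1b*, the other Dkk1 gene, had 1.80, 1.87 and 0.496 CPM in scoliotic fish against 0.208, 0.438 and 0.286 CPM in AB fish (2.08 ± 0.60, edgeR adjusted p = 0.030), a call held in 1 of 6 fits with 1 library left out (adjusted p up to 0.099).

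Among the core polarity genes, 4 of 12 were higher and 1 lower in either homozygous group than in AB fish, and 1 was higher in heterozygotes. Called polarity genes were 41.7% in both homozygous groups, close to the 42.1% and 43.1% of all genes, and 8.33% in heterozygotes, beside 36.2%. *vangl2* (chromosome 7:5324061-5375214), the polarity gene of the trilobite mutant and a component needed for convergent extension, had 66.6, 79.9 and 71.2 CPM in scoliotic fish and 67.3, 72.0 and 74.9 CPM in non-scoliotic homozygotes, against 34.0, 35.8 and 45.0 CPM in heterozygotes and 52.1, 45.0 and 52.3 CPM in AB fish. All homozygotes lay above all other fish, and heterozygotes lay at or below AB. The log2 fold change was 0.47 ± 0.11 and 0.47 ± 0.10 against AB (edgeR adjusted p = 0.012 and 0.0075) and 0.92 ± 0.14 and 0.88 ± 0.14 against heterozygotes (edgeR adjusted p = 0.0035 and 0.0034), with -0.38 ± 0.13 in heterozygotes against AB (edgeR adjusted p = 0.052). *vangl2* and *dvl2* lie 9.02 and 5.81 Mb from *kif7* on the same chromosome.

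*celsr1a*, an atypical cadherin that bridges the polarity complexes of neighbouring cells, had 57.1, 64.3 and 68.3 CPM in scoliotic fish and 57.4, 68.3 and 75.1 CPM in non-scoliotic homozygotes, against 41.6, 39.8 and 39.8 CPM in heterozygotes and 32.0, 38.4 and 34.5 CPM in AB fish. On the log2 scale it was higher by 0.79 ± 0.11 and 0.89 ± 0.13 against AB and 0.65 ± 0.10 and 0.72 ± 0.12 against heterozygotes (edgeR adjusted p = 0.0016, 0.0019, 0.0040 and 0.0050). *prickle1b*, which acts in facial motor neuron migration, had 30.6, 40.6 and 39.9 CPM in scoliotic fish, 31.0, 26.8 and 28.0 CPM in non-scoliotic homozygotes, 24.9, 26.8 and 26.1 CPM in heterozygotes and 18.6, 20.3 and 17.7 CPM in AB fish. It was higher than in AB by 0.90 ± 0.13, 0.55 ± 0.10 and 0.46 ± 0.10 (edgeR adjusted p = 0.0022, 0.0044 and 0.0092). The one polarity gene that was lower in both homozygous groups than in AB was *prickle3*, at -0.46 ± 0.13 and -0.48 ± 0.14 (edgeR adjusted p = 0.031 and 0.027), and these calls were lost on leaving out any 1 scoliotic fish, the third non-scoliotic fish, or AB fish 1 or 3 (adjusted p up to 0.097 and 0.092). *prickle2a* was lower in non-scoliotic homozygotes, at 11.1, 13.2 and 11.9 CPM, than in heterozygotes, at 18.1, 14.4 and 17.1 CPM (-0.47 ± 0.13, edgeR adjusted p = 0.031, held in 2 of 6 fits with 1 library left out, up to 0.13).

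Summed tissue markers also differed between the groups at 6 wpf, and not all in the pattern of the members that were higher in homozygotes. The summed level of 6 cartilage markers was 1156 to 1738 CPM in scoliotic fish and 973 to 1364 CPM in non-scoliotic homozygotes, against 275 to 341 CPM in heterozygotes and 459 to 568 CPM in AB fish, the same order of groups as for *vangl2*. By gene, all 6 were called higher than in AB in both homozygous groups. In heterozygotes against AB, 5 were lower and 1 higher. That is 100% in each, beside 42.1%, 43.1% and 36.2% of all genes. The 7 bone markers summed to 2961 to 4989 CPM in scoliotic fish, 4662 to 4877 CPM in non-scoliotic homozygotes, 2472 to 2975 CPM in heterozygotes and 2326 to 2554 CPM in AB fish. Of the bone markers *bglap* had no reads in any library, and the 6 tested moved both ways. Against AB 3 were higher and 1 lower in scoliotic fish, 4 and 1 in non-scoliotic homozygotes, and 2 and 1 in heterozygotes. That is 66.7%, 83.3% and 50%, beside 42.1%, 43.1% and 36.2% of all genes. The 7 skeletal muscle markers were at 27071 to 32922, 29603 to 32263, 22866 to 27321 and 15423 to 17285 CPM in scoliotic fish, non-scoliotic homozygotes, heterozygotes and AB fish. The 6 fin and mesenchyme markers were at 80.8 to 121, 77.4 to 94.6, 79.7 to 89.0 and 46.8 to 48.5 CPM. Both of these sums were above AB in heterozygotes too. The 6 intestine markers were at 1860 to 2275, 2007 to 2521, 1323 to 1586 and 1467 to 1703 CPM. By gene, none of these 6 was called in scoliotic fish against AB (0%, beside 42.1%). In non-scoliotic homozygotes 2 were higher and none lower (33.3%, beside 43.1%), and in heterozygotes 1 was higher and 1 lower (33.3%, beside 36.2%). Their median log2 fold changes were 0.11, 0.01 and -0.09, so the higher sums in homozygotes do not describe the list as a whole. What share of each member's difference goes with these tissues was not tested.

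The second question was whether the pathway differs between homozygotes with and without curvature. None of the 66 members tested was called between scoliotic and non-scoliotic fish by edgeR, beside 0.38% of all genes (0.244% higher and 0.136% lower), and 3 had an unadjusted p under 0.05. *wnt7aa*, at 17.3, 18.9 and 20.2 CPM in scoliotic fish against 11.9, 10.1 and 13.2 CPM in non-scoliotic homozygotes, differed by 0.69 ± 0.13 with no overlap (edgeR adjusted p = 0.16). It was the 1 member called by DESeq2 (adjusted p = 0.0066) and in an edgeR fit of all 12 libraries (adjusted p = 0.023). *wnt6a* had 0.899, 0.559 and 0.472 CPM in scoliotic fish against 1.81, 1.57 and 1.46 CPM in non-scoliotic homozygotes (-1.31 ± 0.37, edgeR adjusted p = 0.48), and *prickle1b* differed by 0.38 (edgeR adjusted p = 0.67). *vangl2*, *axin2* and *lef1* differed by 0.03 ± 0.10, 0.22 ± 0.10 and 0.16 ± 0.15 (edgeR adjusted p = 0.97, 0.77 and 0.90). A p that misses the threshold does not show equal levels, and with 3 fish a group these standard errors set what could be seen.

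Genes of the pathway outside the 72 were read from 4 lists. No gene of any of these lists was called between scoliotic and non-scoliotic fish (0%, beside 0.38% of all genes). A value given below for scoliotic fish alone thus does not set them apart from non-scoliotic homozygotes. Of 28 non-canonical and polarity effectors tested, 9 were higher and 3 lower in scoliotic fish than in AB (42.9%, beside 42.1% of all genes), 11 and 3 in non-scoliotic homozygotes (50%, beside 43.1%) and 3 and 3 in heterozygotes (21.4%, beside 36.2%). In scoliotic fish against heterozygotes 13 were higher and 3 lower (57.1%, beside 36.9%), and in non-scoliotic homozygotes 11 and 2 (46.4%, beside 36.6%). The median log2 fold changes were 0.30, 0.26 and -0.07 against AB and 0.34 and 0.35 against heterozygotes. *gpc4*, the heparan sulphate glypican of the knypek mutant that acts in convergent extension and cartilage stacking, averaged 144 CPM in scoliotic fish against 60.9 CPM in heterozygotes (1.24 ± 0.13, edgeR adjusted p = 0.00094), and the formin gene *daam1b* averaged 61.4 against 35.4 CPM (0.79 ± 0.13, edgeR adjusted p = 0.0037). *fjx1*, whose fly homologue modifies Fat and Dachsous cadherins, was lower, at 4.27 CPM in scoliotic fish against 10.6 CPM in heterozygotes and 12.6 CPM in AB fish.

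Of 25 genes that transduce or modulate the beta-catenin signal, 3 were higher and 8 lower in scoliotic fish than in AB. The counts were 4 and 8 in non-scoliotic homozygotes and 1 and 9 in heterozygotes. With both directions together this is 44%, 48% and 40%, near the 42.1%, 43.1% and 36.2% of all genes. By direction, 19.2% of all genes were higher and 23% lower in scoliotic fish. These shares were 21.2% and 21.9% in non-scoliotic homozygotes and 18.6% and 17.6% in heterozygotes. Against AB the list thus leaned to lower calls in each group, with median log2 fold changes of -0.12, -0.12 and -0.36. These 3 comparisons share the AB fish. Against heterozygotes the lean was not seen: 5 were higher and 2 lower in each homozygous group (28%, beside 36.9% and 36.6% of all genes). There the medians were 0.22 in scoliotic fish and 0.17 in non-scoliotic homozygotes. *ctnnb2* averaged 289.8 CPM in scoliotic fish against 437 CPM in AB (-0.66 ± 0.09, edgeR adjusted p = 0.0016), and *pygo2*, a nuclear co-activator gene, 37.1 against 92.3 CPM (-1.39 ± 0.08, edgeR adjusted p = 0.00013). *ctnnb1*, the other beta-catenin gene, averaged 522 CPM in scoliotic fish against 385 CPM in AB (0.37 ± 0.09, edgeR adjusted p = 0.016). In heterozygotes against AB both were lower, *ctnnb1* by 0.38 ± 0.11 and *ctnnb2* by 0.57 ± 0.18 on the log2 scale (edgeR adjusted p = 0.030 and 0.035).

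Of 16 secretion, R-spondin and cell-surface regulators, 6 were higher and 1 lower in scoliotic fish than in AB (43.8%, beside 42.1% of all genes). The counts were 7 and 1 in non-scoliotic homozygotes (50%, beside 43.1%) and 4 and none in heterozygotes (25%, beside 36.2%). Median log2 fold changes were 0.44, 0.45 and 0.24 in that order. Among those higher in scoliotic fish than in AB was *lgr4*, an R-spondin receptor, at 64.8 against 37.8 CPM (0.71 ± 0.10, edgeR adjusted p = 0.0018). Another was *wif1*, a secreted Wnt inhibitor, at 24.9 against 11.6 CPM (1.03 ± 0.16, edgeR adjusted p = 0.0030). Of 14 genes listed as targets, 6 were higher and 3 lower in scoliotic fish than in AB (64.3%, beside 42.1% of all genes), 5 and 3 in non-scoliotic homozygotes (57.1%, beside 43.1%) and 6 and none in heterozygotes (42.9%, beside 36.2%), with medians of 0.44, 0.38 and 0.36. *nkd1*, a feedback inhibitor, was higher in scoliotic fish than in AB (1.03 ± 0.11, edgeR adjusted p = 0.00062), *ccnd1*, the cyclin D1 gene, averaged 85.6 against 50.3 CPM (0.70 ± 0.12, edgeR adjusted p = 0.0036), and *sall4*, also an oocyte and stem cell gene, 5.12 against 47.1 CPM (-3.28 ± 0.39, edgeR adjusted p = 0.00093). *mycb* averaged 39.3 CPM in scoliotic fish and 40.7 CPM in non-scoliotic homozygotes, 169 CPM in heterozygotes and 69.8 CPM in AB fish. *dusp6*, a phosphatase gene that also responds to FGF signalling, split the fish: 0.742, 28.7 and 0.991 CPM in scoliotic fish and 28.1, 30.1 and 24.7 CPM in non-scoliotic homozygotes, against 1.77, 1.68 and 2.16 CPM in heterozygotes and 0.675, 0.523 and 0.473 CPM in AB fish. Against AB it was called in non-scoliotic homozygotes (5.59 ± 0.18, edgeR adjusted p = 3.9e-05) and not in scoliotic fish (edgeR adjusted p = 0.061), where fish 2 was at the non-scoliotic level and fish 1 and 3 were below the heterozygotes. The list has genes with other inputs too, and its members moved both ways in homozygotes.

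At 4 dpf the question was whether a difference is present before curvature. In homozygous against AB pools edgeR called none of 66 members, beside 0.509% of all genes (0.263% higher, 0.246% lower), with 3 at an unadjusted p under 0.05 (*sfrp2*, *wnt9b* and *wnt4b*) and 1 called by DESeq2 (*sfrp2*). *sfrp2* had 22.6 and 13.8 CPM in homozygous pools and 11.5 and 9.85 CPM in heterozygous pools, against 5.43 and 6.57 CPM in AB pools, a log2 difference of 1.59 for homozygotes. In homozygous against heterozygous pools none of 66 was called by edgeR or DESeq2, beside 0.0358% of all genes by edgeR (0.00895% higher, 0.0268% lower), with 1 member at an unadjusted p under 0.05. The 2 homozygous pools differed widely in the members themselves: *fzd2* was at 39.2 CPM in pool 1 and 119 CPM in pool 2, *fzd8a* at 21.5 and 58.7 CPM, *dvl3a* at 14.0 and 35.8 CPM and *lef1* at 19.8 and 52.3 CPM, each spanning both other groups. With pool 2 left out, 6 members were called against AB, and with pool 1 left out none, in fits where the lone pool was assumed to vary like the other group.

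Heterozygous against AB pools gave 2 of 66 members called, beside 6.21% of all genes, 1 higher (3.84% of all genes) and 1 lower (2.37%). *wnt9b* had 41.5 and 35.6 CPM in heterozygous pools against 14.3 and 16.9 CPM in AB pools (1.36 ± 0.17, edgeR adjusted p = 0.0060, and 0.077 without heterozygous pool 1), and homozygous pools were at 29.9 and 30.1 CPM. It was thus higher in heterozygotes than in AB at both ages. *dkk3a* had 10.5 and 11.3 CPM against 17.9 and 20.1 CPM in AB pools (-0.75 ± 0.18, edgeR adjusted p = 0.046), lost without either heterozygous pool (adjusted p up to 0.37). *axin2*, *lef1* and *vangl2* differed by -0.06 ± 0.39, -0.00 ± 0.48 and -0.18 ± 0.37 in homozygous pools against AB, by -0.06 ± 0.15, -0.17 ± 0.19 and -0.12 ± 0.15 in heterozygous pools against AB, and by -0.04 ± 0.39, 0.15 ± 0.49 and -0.09 ± 0.35 between homozygous and heterozygous pools, none of which passed the test. For *lef1* between homozygous and heterozygous pools the direction turned on the pool: it was called lower (-0.69, edgeR adjusted p = 0.0056) without homozygous pool 2 and higher (0.70, edgeR adjusted p = 0.0018) without homozygous pool 1.

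Age changed the most members. In AB fish at 6 wpf against AB embryos at 4 dpf, 40 of 66 were called, 6 higher and 34 lower, or 60.6% of members beside 58.6% of all genes, with 9.09% of members higher beside 30.3% of all genes and 51.5% lower beside 28.2%. The median log2 fold change was -0.65 for members and -0.00 for all genes, and 33 of the 40 calls held with any library left out. Of 12 polarity genes, 9 were lower and none higher, and of 23 ligands 10 were lower and none higher. *wnt9b* had 1.65, 2.61 and 2.95 CPM at 6 wpf against 14.3 and 16.9 CPM at 4 dpf (-2.68 ± 0.27, edgeR adjusted p = 0.00011), *wnt4b*, a floor plate ligand, 1.07, 1.20 and 1.04 CPM against 6.72 and 5.61 CPM (-2.47 ± 0.26, edgeR adjusted p = 0.00013), and *fzd3a* 14.7, 11.6 and 12.8 CPM against 56.5 and 50.9 CPM (-2.03 ± 0.14, edgeR adjusted p = 1.9e-05). *celsr1b*, a paralogue of *celsr1a*, had 14.7, 12.1 and 15.8 CPM against 54.9 and 50.7 CPM (-1.88 ± 0.14, edgeR adjusted p = 3.2e-05). Inhibitors were among the members lower with age too: *dkk1b* had 0.208, 0.438 and 0.286 CPM at 6 wpf against 2.66 and 1.59 CPM at 4 dpf (-2.76 ± 0.49, edgeR adjusted p = 0.0019), and *sfrp2* changed by -2.33 ± 0.26. The other members with the largest falls were *wnt8b*, *wnt7aa*, *dvl1b*, *prickle1b* and both *celsr2* identifiers, at log2 fold changes from -1.92 to -1.52. *axin2* fell by 0.64 ± 0.11 (edgeR adjusted p = 0.0020) and *vangl2* by 0.38 ± 0.13 (edgeR adjusted p = 0.033, lost without any 1 of the 3 AB fish or AB pool 1, up to 0.14), and *lef1* differed by -0.19 ± 0.16 (edgeR adjusted p = 0.33).

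The 6 members that were higher at 6 wpf included *dvl3a*, at 67.8, 66.3 and 64.7 CPM against 19.8 and 20.9 CPM in embryos (1.71 ± 0.11, edgeR adjusted p = 1.3e-05), *dkk3b*, at 20.9, 18.7 and 19.5 CPM against 8.85 and 8.02 CPM (1.23 ± 0.14, edgeR adjusted p = 0.00024), and *fzd5*, at 23.0, 19.8 and 23.8 CPM against 11.3 and 14.1 CPM (0.82 ± 0.16, edgeR adjusted p = 0.0029). *axin1* and *dvl2* were higher by 0.47 ± 0.11 each (edgeR adjusted p = 0.0076 and 0.0065), and *sfrp1b* by 2.20 ± 0.67 (edgeR adjusted p = 0.023, lost without AB fish 2 or 3 or AB pool 1, up to 0.10). Embryos and fish differ in tissue makeup as a whole, as the summed oocyte markers (2317 to 2680 CPM at 6 wpf, 3.84 to 4.44 CPM at 4 dpf) and neural markers (731 to 779 and 2116 to 2426 CPM) show, and its part in each member was not tested.

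**Figure D5:**
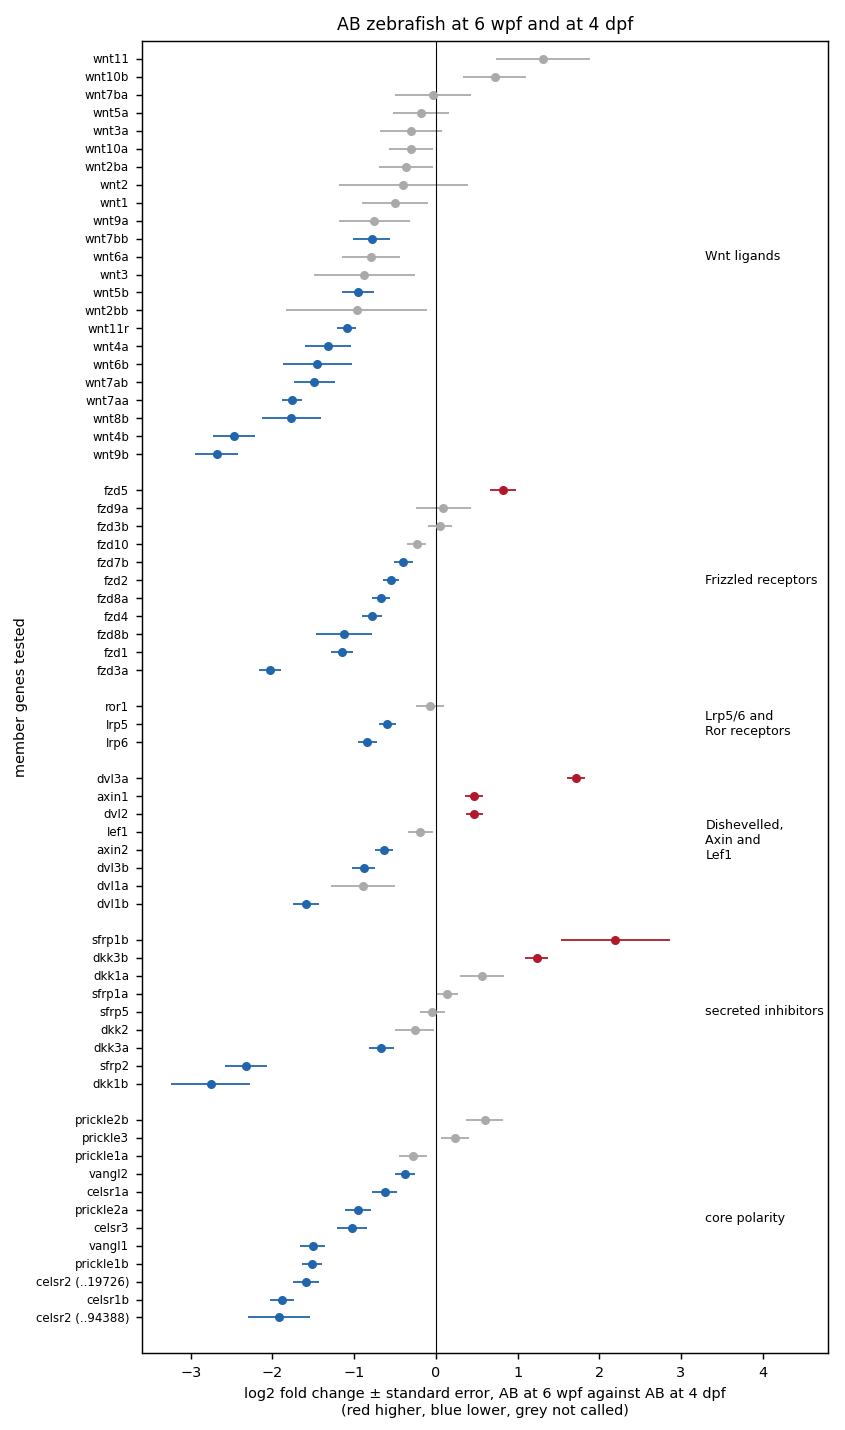
Log2 fold change (horizontal axis) with standard error of each of the 66 members tested in AB fish at 6 wpf against AB embryos at 4 dpf, grouped by role, with red called higher, blue called lower and grey not called. The 34 lower members include all but 3 of the 12 polarity genes, and the 6 higher members are led by *sfrp1b* and *dvl3a*.

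Whether the homozygous difference itself changed with age was tested in 1 fit of all 18 libraries, which set the mean of both homozygous groups minus AB at 6 wpf against the same difference at 4 dpf. It called 11 of 67 members (8 more positive and 3 more negative at 6 wpf) by edgeR, beside 15.8% of all genes (7.44% more positive and 8.41% more negative). Of these calls, 3 held with any 1 of the 13 libraries left out (*dkk3b*, *lrp5* and *sfrp1a*), and without AB pool 1 the count was 4.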

How the data were processed

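RNA of 1 whole fish (6 wpf) or 20 pooled embryos (4 dpf) was sequenced as poly-A libraries. According to the submitters' processing notes, the authors used fastp, HISAT2, StringTie, featureCounts and DESeq2 with GRCz11, and the deposited table holds raw read counts per gene. A second deposited table with fold changes and p-values of the authors' own comparison was not used, nor were its 18 per-sample columns. Groups came from the sample titles. Members were the genes whose names match the Wnt, Frizzled, Lrp5/6, Ror, Dishevelled, Axin, Lef1, Dkk, Sfrp, Vangl, Celsr and Prickle families. The members and the gene lists were chosen with earlier results of these data known.

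Each pair of groups was fitted on its own with edgeR 4.0.16 in R 4.3.3 (limma 3.58.1): filterByExpr (min.count 10, min.total.count 15), TMM scaling, the quasi-likelihood test, and Benjamini-Hochberg adjustment over all genes tested, with calls at an adjusted p under 0.05. CPM used TMM over the 18 libraries, and RPKM used the table's gene lengths. The standard error is the size of the log2 fold change over the square root of F. The effect at both ages was set side by side in 1 fit of 18 libraries. Named were, in each comparison, up to 12 called members with the largest change in each direction, *axin2*, *lef1* and *vangl2* throughout, the 3 members of each family with the largest mean RPKM, members with almost no reads, and *fzd9a*, chosen after its values were seen. At most 5 genes of each other pathway list, by smallest p, were named. Fits were tested on simulated counts first. Alternatives were RLE scaling, DESeq2 1.42.0, no filter, a filter at a mean of 1 CPM, 1 fit per age, a replicate block, and each library left out in turn. Figures were drawn with matplotlib. Gene names were looked up in a RefSeq name table, where 71 of 72 members had an entry.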

Additional observations from a re-analysis of the deposited data

Results flagged for a closer look

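The homozygous difference, the mean of both homozygous groups minus AB, differed between 6 wpf and 4 dpf for 11 of 67 members. This was in the edgeR fit of all 18 libraries, and the share is close to the 15.8% of all genes called there. The 2 homozygous embryo pools stood apart from each other, which enters every one of these values, and its part was not tested.

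For 8 members the difference was more positive at 6 wpf. *wnt5b* was higher in homozygotes by 1.02 at 6 wpf and at -0.20 at 4 dpf on the log2 scale, a change of 1.22 ± 0.28 (edgeR adjusted p = 0.010, and 0.077 without AB pool 1). *celsr1a* changed by 1.09 ± 0.23 (0.90 at 6 wpf, -0.20 at 4 dpf, edgeR adjusted p = 0.0064, and 0.053 without AB pool 1), and *fzd3a* by 1.08 ± 0.28 (edgeR adjusted p = 0.018, lost without homozygous pool 1 or AB pool 1, up to 0.080). *dkk3b*, *sfrp1a* and *lrp5* changed by 1.03 ± 0.18, 0.96 ± 0.22 and 0.88 ± 0.18 (edgeR adjusted p = 0.0023, 0.0094 and 0.0060), and these 3 calls held with any 1 of the 13 libraries of the contrast left out. *prickle1b* changed by 0.77 ± 0.22 (edgeR adjusted p = 0.030, lost without AB fish 1 or 3, homozygous pool 1 or AB pool 1, up to 0.14), and *fzd1* by 0.58 ± 0.15 (edgeR adjusted p = 0.021, lost without AB fish 2 or AB pool 1, up to 0.084).

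For 3 members it was more negative at 6 wpf. *dvl3a* changed by -1.38 ± 0.37 (-1.09 at 6 wpf, 0.29 at 4 dpf, edgeR adjusted p = 0.022, lost without homozygous pool 2 or either AB pool, up to 0.11) and *fzd5* by -1.10 ± 0.28 (-0.84 at 6 wpf, 0.27 at 4 dpf, edgeR adjusted p = 0.015, and 0.098 without AB pool 1). *wnt11* changed by -3.16 ± 0.77 (-1.29 at 6 wpf, 1.87 at 4 dpf, edgeR adjusted p = 0.014, lost without homozygous pool 1 or AB pool 2, up to 0.066), on 2.87 and 1.00 CPM in homozygous pools against 0.802 and 0.245 CPM in AB pools. *vangl2*, *axin2* and *lef1* changed by 0.71 ± 0.24, 0.17 ± 0.27 and -0.20 ± 0.44 (edgeR adjusted p = 0.060, 0.73 and 0.82).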

How the results depend on the processing

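Of the 155 named gene values, 124 of them called, most kept direction and side of the threshold: over all alternatives 1633 values stayed, 159 kept direction but lost the call, 12 gained one and 34 changed sign, and the sign changes were all in *axin2*, *lef1*, *vangl2* and *fzd9a* values that were not called with all libraries. Of the 34, 1 was itself called, *lef1* in homozygous against heterozygous pools. Where a cause is not named, it was not tested.

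Counts of called members moved in the following cases. Scoliotic against non-scoliotic fish gave 1 by DESeq2 and 1 in the fit of all libraries of the age. Homozygous against AB pools gave 1 by DESeq2 and 1 without a filter. Heterozygous against AB pools gave 7 by DESeq2, 8 without a filter and 0 in the fit of all libraries of the age. Over all genes, DESeq2 called 420 rather than 84 between scoliotic and non-scoliotic fish, 638 rather than 114 between homozygous and AB pools, and 243 rather than 8 between homozygous and heterozygous pools.

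With 1 library left out, called members ranged from 22 to 29 in scoliotic against AB fish, 24 to 29 in non-scoliotic homozygotes against AB, 10 to 23 in heterozygotes against AB, 12 to 20 and 13 to 20 in scoliotic and non-scoliotic fish against heterozygotes, 0 to 0 between scoliotic and non-scoliotic fish, 0 to 6 in homozygous against AB pools, 0 to 15 in heterozygous against AB pools, 0 to 17 in homozygous against heterozygous pools, 36 to 39 with age in AB, and 4 to 19 for the change of the homozygous difference with age. The heterozygous count against AB fish was 10, 11 and 10 without heterozygote 1, AB fish 1 and AB fish 3. At 4 dpf the lone pool of an arm was assumed to vary like the other group.

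Replicate numbers did not pair the samples: deviations of same-numbered libraries correlated at -0.07 to 0.44 at 6 wpf and -0.13 to -0.02 at 4 dpf. With the number as a replicate block, 22, 24, 15, 15, 18 and 0 members were called in the 6 comparisons at 6 wpf, in the order above, and 0, 1 and 0 at 4 dpf in homozygous against AB, heterozygous against AB and homozygous against heterozygous pools, and *lef1* of homozygous against heterozygous pools was at -0.020. A crossed block, added after seeing the data, gave 1 member in homozygous against AB pools.

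Sign changes under settings that kept all libraries were small. *axin2* was at 0.015 and 0.00085 in the fit of all libraries of the age (non-scoliotic homozygotes against AB and against heterozygotes), at -0.0077 by RLE and -0.0098 by DESeq2 (heterozygotes against AB), and at 0.0097 and 0.0089 (homozygous against heterozygous pools). *lef1* was at 0.0096 by RLE and 0.0096 by DESeq2 in homozygous against AB pools. With 1 library left out, *axin2* ranged from -0.13 to 0.093 in heterozygotes against AB fish, -0.10 to 0.12 in non-scoliotic homozygotes against heterozygotes, -0.56 to 0.30 in homozygous and -0.15 to 0.037 in heterozygous against AB pools, and -0.50 to 0.35 between homozygous and heterozygous pools. *lef1* ranged from -0.068 to 0.39 in non-scoliotic homozygotes against heterozygotes, -0.88 to 0.54 and -0.35 to 0.012 in homozygous and heterozygous against AB pools, -0.69 to 0.70 between homozygous and heterozygous pools (called lower without homozygous pool 2, edgeR adjusted p = 0.0056, and higher without homozygous pool 1, edgeR adjusted p = 0.0018), and -0.37 to 0.024 with age. *vangl2* ranged from -0.054 to 0.083 between scoliotic and non-scoliotic fish, -0.55 to 0.11 in homozygous against AB pools and -0.42 to 0.23 against heterozygous pools, and *fzd9a* from -0.10 to 0.30 with age.

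With 2 pools a group, calls at 4 dpf are limited by the spread between pools, and members below about 1 CPM rest on few reads.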
